A study of Mus musculus with 27 samples.

Results

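The genes described here are 32 genes of red cell maturation and heme production, out of 37208 genes or transcripts on the arrays, 20145 of them with a gene symbol. They were chosen by name: the regulator Klf1, the enzymes of heme synthesis, the carriers that bring iron and heme precursors into the cell and the mitochondrion, the proteins of the red cell membrane and its skeleton, blood group proteins, and cytosolic enzymes of the red cell. Globin genes were left out of the group. Every one of the 32 was found on the array through its RefSeq accession, and where a gene had several probes the one with the highest mean over the 27 arrays stands for it.

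The data come from mouse ESCs of the A2lox line in which a Flag-tagged dominant-negative FOS peptide (dnFOS), placed under DOX control at the Hprt locus, blocks AP-1 factors when DOX is given. All cells, untreated ones too, came from picked clones carrying this cassette, were grown on mouse feeder cells, and were differentiated in embryoid bodies for 3.75 d before FLK1+ cells were purified with magnetic beads and put into blast culture. RNA was measured on 27 one-colour arrays in 13 groups: untreated FLK1+ cells, and 6 populations each with an untreated arm and an arm in 1 µg/ml DOX. These were the whole culture after 5 h with or without DOX (FLK1+ 5h) and after 1 d (d1 BC), and, with DOX for 2 d, smooth muscle cells (SM), early hemogenic endothelium (HE1, KIT+TIE2+CD41-), late hemogenic endothelium (HE2, KIT+TIE2+CD41+) and hematopoietic progenitors (HP, KIT+TIE2-CD41+). Each group had 2 arrays, untreated SM cells 3. DOX was not given to cassette-free cells on the arrays, and the labels do not say whether arrays of a group came from separate cultures, so that p-values measure the spread between these samples.

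Heme is made in a chain of enzymes that begins and ends in the mitochondrion. ALAS2, the erythroid form of the first enzyme, and the last enzyme, ferrochelatase, work on glycine, succinyl-CoA and iron, and the transferrin receptor brings in the iron. As red cells mature, GATA1 and KLF1 switch on these genes together with those of the spectrin-based skeleton and of blood group antigens. In the embryo the first red cells are primitive ones and carry embryonic globins.

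Levels below are log2 signals minus the array's 75th percentile, so that 0 is that percentile and 1 unit is a 2-fold difference. Levels of different probes cannot be set against each other. Adjusted p-values are from limma with Benjamini-Hochberg adjustment over all genes tested, SE is the standard error of the fitted log2 difference, and a gene was called where that p was under 0.05 and the groups differed by 2-fold or more. A gene was tested where its probe was well above background on every array of at least 1 of the groups compared. Of the 32 genes, 19 were well above background on all 27 arrays and 0 on none. In these bulk samples fewer cells of a type and less RNA per cell cannot be told apart.

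Some arrays stood apart. The 75th percentile of the signal lay between 73.2 and 636, lowest on untreated HE2 replicate 1, and 46.9% to 89.6% of probes were well above background. Both untreated HE1 arrays were dim too, with that percentile at 125 and 128, and HE1 DOX replicate 1 was at 138. The untreated HP arrays were at 289 and 396. The background limit was passed by 53.6% and 70.3% of probes on the untreated HE1 arrays, and by 62.4% and 66.1% on the untreated HP arrays. The part of this dimness in the comparisons with HE1 cells was not tested. Arrays lay on 5 slides, most of them shared by several groups. Hprt, whose locus carries the cassette, was higher on every DOX array than on every untreated array of the same population in all 6 populations, by 1.41 to 3.62 on the log2 scale. Acta2, the smooth muscle actin, had levels of 9.10 to 9.84 on the untreated SM arrays. Itga2b, which encodes CD41, was at 0.06 on HE2 DOX replicate 2 against 3.84 on replicate 1, and at 0.43 on HP DOX replicate 1 against 2.62 on replicate 2. Tek, which encodes TIE2, was at -0.74 on HE2 DOX replicate 2 against 2.71 on replicate 1, so HE2 DOX replicate 2 went against both of these markers of its sort. Kit, the third marker, was not low there, at 5.39 against 4.83 on replicate 1 and 3.94 and 4.39 on the untreated HE2 arrays. HE1 DOX replicate 2 also had a low Tek level, 0.21 against 2.75 on replicate 1 and 2.22 and 2.74 on the untreated HE1 arrays, although the gate was TIE2+.

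Promoter sequences of RefSeq (GRCm38.p6) were held for 24 of the 32 genes, with 31 start sites among them. In the 250 bases before the start, 11 of these 31 promoters (35.5%) held a GATA box, spelled AGATAA or TGATAA on either strand, against 16.6% of 32851 promoters of all genes. The strict CACCC box CCACACCC was in 0 of the 31 and in 3.2% of all promoters. The AP-1 letters TGAGTCA or TGACTCA were in 2 of the 31 (6.45%), those of Kel and Trim10, against 4.46% of all. These are matches of letters and not measured sites. The 6 promoters shown all hold a GATA match, which 11 of the 24 genes had, so they do not stand for the group. Of their genes, Epb42 and Rhag were called with the main values, and Klf1, Alas2, Kel and Trim10 were not. No promoter was held for Car2, the gene called most often. Capitals mark the GATA and AP-1 letters.
Klf1, chr8:84901732-84901981, plus strand, with a GATA match that begins 80 bases before the start:
Klf1: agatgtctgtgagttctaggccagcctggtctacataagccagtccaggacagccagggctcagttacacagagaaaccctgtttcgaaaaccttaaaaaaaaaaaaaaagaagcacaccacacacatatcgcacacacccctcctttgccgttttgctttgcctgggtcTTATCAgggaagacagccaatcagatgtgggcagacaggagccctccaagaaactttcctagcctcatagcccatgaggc
Alas2, chrX:150547167-150547416, plus strand, with a GATA match 86 bases before the start:
Alas2: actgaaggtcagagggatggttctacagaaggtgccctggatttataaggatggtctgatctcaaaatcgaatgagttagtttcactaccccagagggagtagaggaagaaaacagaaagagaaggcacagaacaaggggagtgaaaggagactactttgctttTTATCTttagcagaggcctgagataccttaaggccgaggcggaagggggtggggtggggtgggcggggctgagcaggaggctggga
Epb42, chr2:121036878-121037127, minus strand, with a GATA match 226 bases before the start:
Epb42: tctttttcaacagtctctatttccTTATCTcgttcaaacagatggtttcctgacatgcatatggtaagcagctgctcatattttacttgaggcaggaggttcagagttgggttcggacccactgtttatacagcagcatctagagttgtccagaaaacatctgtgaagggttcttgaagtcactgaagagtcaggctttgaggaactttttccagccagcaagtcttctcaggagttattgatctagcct
Rhag, chr17:40810899-40811148, plus strand, with a GATA match 31 bases before the start:
Rhag: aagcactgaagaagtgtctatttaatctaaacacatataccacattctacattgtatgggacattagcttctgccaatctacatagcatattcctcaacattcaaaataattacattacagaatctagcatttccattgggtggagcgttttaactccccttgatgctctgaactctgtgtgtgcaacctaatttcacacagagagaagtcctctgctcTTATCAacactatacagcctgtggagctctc
Kel, chr6:41704326-41704575, minus strand, with GATA matches 56 and 19 bases and an AP-1 match 232 bases before the start:
Kel: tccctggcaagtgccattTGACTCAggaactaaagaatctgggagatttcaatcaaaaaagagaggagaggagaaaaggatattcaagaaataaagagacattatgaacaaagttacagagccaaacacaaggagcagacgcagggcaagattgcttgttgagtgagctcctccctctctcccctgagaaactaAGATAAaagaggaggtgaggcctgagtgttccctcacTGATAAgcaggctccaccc
Trim10, chr17:36869324-36869573, plus strand, with a GATA match 163 bases and an AP-1 match 56 bases before the start:
Trim10: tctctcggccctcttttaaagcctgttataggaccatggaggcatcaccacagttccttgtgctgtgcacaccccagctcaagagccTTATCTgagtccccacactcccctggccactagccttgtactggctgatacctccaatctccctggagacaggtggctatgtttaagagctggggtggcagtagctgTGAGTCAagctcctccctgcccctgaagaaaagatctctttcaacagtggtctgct

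**Figure D1:**
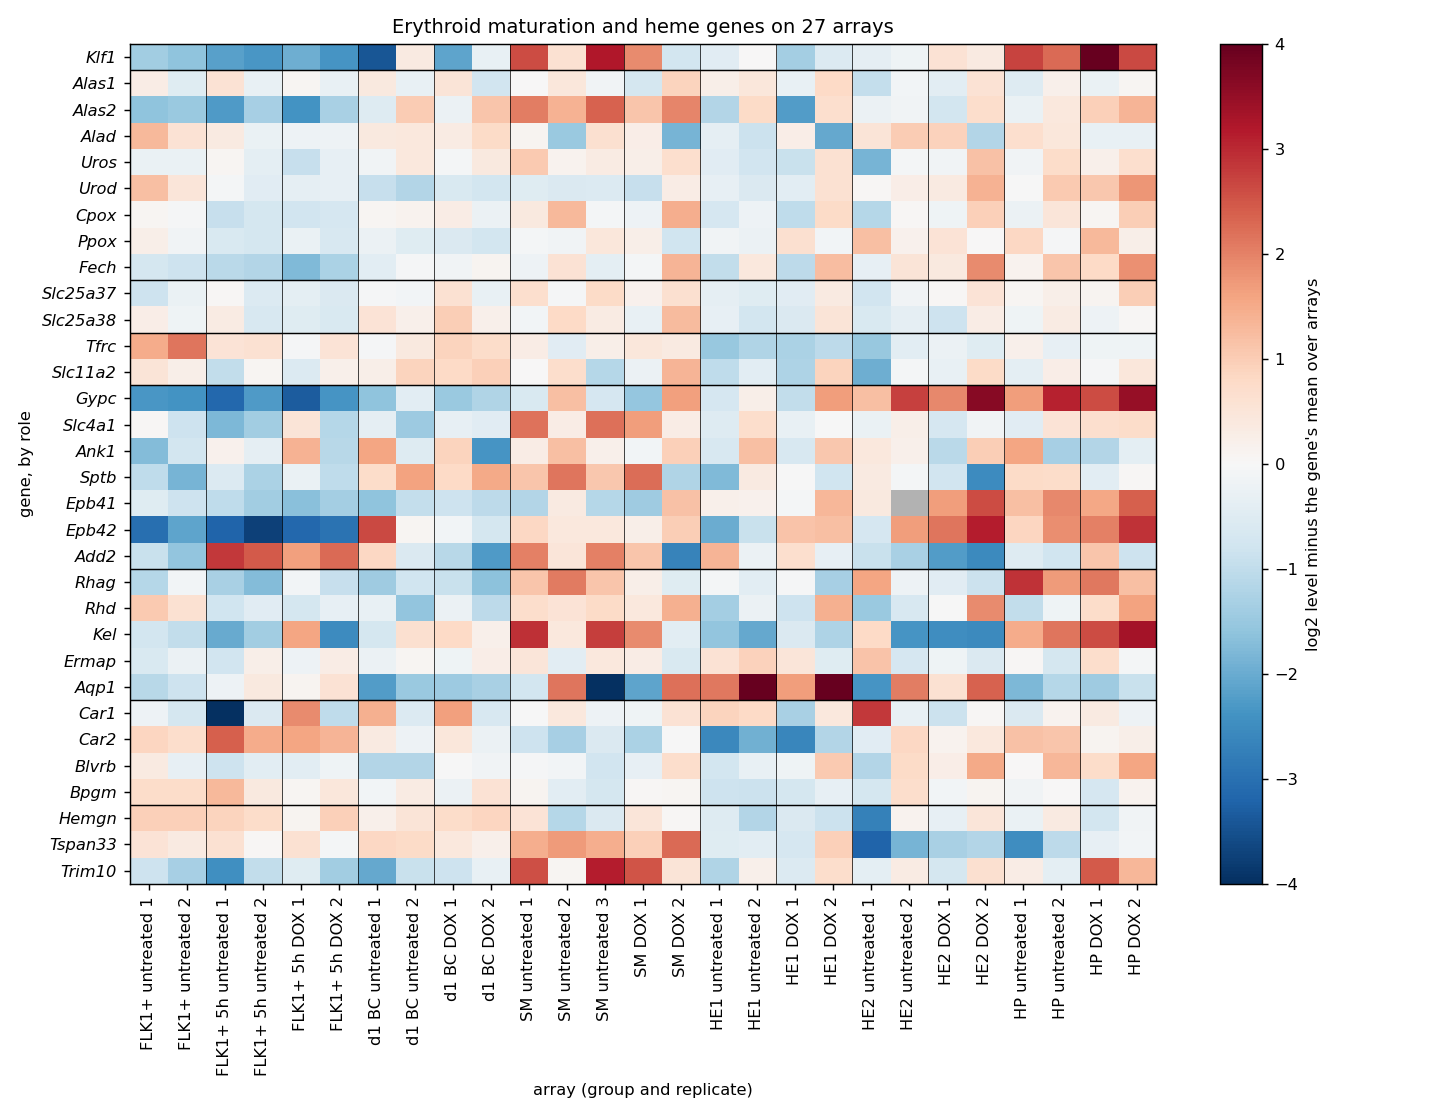
Heat map of the log2 level of each of the 32 genes (rows, by role, with lines between roles) on each of the 27 arrays (columns), minus the gene's mean over the arrays on which it was measured; the grey cell is an Epb41 spot removed as an outlier. The 5 highest Gypc and Epb41 values are on HE2 and HP arrays, the 6 highest Klf1 values on the HP arrays and 2 untreated SM arrays, and the 2 highest Aqp1 values on HE1 arrays.

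In untreated cells, the highest mean of a gene over the 7 populations fell in SM cells for 10 of the 32 genes and in HP cells for 7, while the lowest fell in FLK1+ 5h cells for 11. Klf1, the erythroid zinc finger factor that activates many of the other genes, was not well above background on the arrays of FLK1+ cells (-4.31 and -4.54) or FLK1+ 5h cells (-5.11 and -5.24). In d1 BC cells it was at -6.33 on one array, again not well above background, and at -2.58 on the other. It was at -3.39 and -2.90 in HE1 cells, at -3.29 (not well above background) and -3.08 in HE2 cells and at -0.21 and -0.65 in HP cells, so that both HP arrays lay above all HE1 and HE2 arrays. The difference from HE2 to HP cells was 2.76 (SE 1.04) and did not pass the test (adjusted p = 0.75), and that from HE1 to HP cells was 2.72 (SE 1.04, adjusted p = 0.196).

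Of the 8 enzymes of heme synthesis, none was called in any comparison of untreated populations. Alas2, the erythroid enzyme of the first step, was at -1.87 and -1.73 in FLK1+ cells and at -2.53 and -1.57 at 5 h. It was at -0.78 and 0.77 in d1 BC cells, above every earlier array, with a log2 difference of 2.04 (SE 0.87, adjusted p = 0.385). Its levels were -1.42 and 0.52 in HE1 cells, -0.49 and -0.40 in HE2 cells and -0.52 and 0.17 in HP cells, which overlapped. The 3 untreated SM arrays, at 1.80, 1.12 and 2.12, were the highest of all untreated arrays. HP cells lay below them by a log2 difference of -1.86 (SE 0.79, adjusted p = 0.204).

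Alas1 encodes the form of the same enzyme that most cells use. Its group means ran only from 2.97 in HE2 cells to 3.84 in HE1 cells, a range of 0.87 against 3.73 for Alas2. It was well above background on all 27 arrays, and so was Alas2.

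The later enzymes of the chain had a narrower spread of group means than Alas2. The range of group means was 1.35 for Cpox, 1.34 for Ppox, 1.48 for Uros, 1.55 for Alad, 1.76 for Fech and 1.89 for Urod. Fech, which inserts iron into protoporphyrin, was at 1.72 and 1.63 in FLK1+ 5h cells and at 2.95 and 3.92 in HP cells, its lowest and highest groups. Urod, uroporphyrinogen decarboxylase, was highest in FLK1+ cells, at 6.29 and 5.55, and lowest in d1 BC cells, at 4.15 and 3.90. From HE1 to HP cells, 7 of the 8 enzymes were higher, with a median of 0.74 and a range from -0.50 for Alas1 to 1.18 for Alad.

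No carrier of iron or precursors passed the test in the same untreated cells, although Tfrc did under some alternatives. Tfrc, the transferrin receptor, was at 3.47 and 4.13 in FLK1+ cells and at 2.54 and 2.59 after 5 h of culture. It was at 0.48 and 0.79 in HE1 cells, below d1 BC cells at 1.95 and 2.38 (log2 difference -1.53, SE 0.47, adjusted p = 0.087), and at 2.18 and 1.64 in HP cells (1.28 above HE1 cells, SE 0.47, adjusted p = 0.171). Among all genes tested, 3.13% were called between d1 BC and HE1 cells and 4.22% between HE1 and HP cells. The lower Tfrc level of HE1 cells against d1 BC cells was called with normexp (adjusted p = 0.0286) and with the authors' values (adjusted p = 0.0171), and the higher level in HP cells when slides were a random block (adjusted p = 0.0455). Other probes of Tfrc differed in sign between HE1 and HP cells, with log2 fold changes of -0.92 and -0.20. Slc11a2, the iron importer DMT1, and the mitochondrial carriers Slc25a37 (mitoferrin) and Slc25a38 (the glycine carrier) had ranges of group means of 1.58, 1.03 and 0.91.

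Among proteins of the membrane and its skeleton, Gypc, which encodes glycophorin C, had a range of 5.07 between group means and was well above background on all 27 arrays. It was at -0.55 and 0.33 in FLK1+ 5h cells, 0.97 and 2.17 in d1 BC cells, 1.93 and 2.81 in HE1 cells, 3.79 and 5.31 in HE2 cells, and 4.26 and 5.66 in HP cells. On slide 1 HP cells lay above HE1 cells by 2.33 and on slide 3 by 2.85. Its log2 fold change between these populations was 2.59 (SE 1.02) with an adjusted p of 0.218. It was called there only with the slide as a fixed (adjusted p = 0.00345) or random block (0.0193) or the replicate number as a block (0.0266).

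Epb42, protein 4.2, which ties band 3 to the skeleton, was not well above background on the FLK1+ 5h arrays, at -6.79 and -7.34. In d1 BC cells it was at -0.96 and -3.51, at least 7.23-fold higher, and was called higher with an adjusted p of 0.00389 (fitted log2 difference 4.83, SE 0.79). It was the only 1 of the 27 genes tested that passed in this step, where 0.555% of all genes tested were called higher. Without d1 BC replicate 1 the adjusted p was 0.0559, and without FLK1+ 5h replicate 1 it was 0.0584, while normexp gave 0.327 (log2 fold change 1.38) and the authors' values 0.0932 (log2 fold change 1.87). In HE1 cells Epb42 was again not well above background, at -5.59 and -4.48, while HP cells were at -2.73 and -1.72, at least 2.90-fold higher (adjusted p = 0.0511). With the slide as a fixed block that adjusted p was 0.013.

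Epb41, protein 4.1, had levels of 6.63 and 7.36 in HP cells and of 4.25, 5.79 and 4.29 in SM cells, and was called higher in HP cells (log2 difference 2.22, SE 0.68, adjusted p = 0.0487). Leaving out single arrays of these groups moved the adjusted p to between 0.14 and 0.405 where either HP array or SM replicate 1 or 3 was left out, and it was 0.067 without a filter on dim probes, 0.297 with the mean of all probes and 0.191 with the compared groups fitted alone. The other 2 Epb41 probes were also higher in HP cells, by 1.44 and 0.41, but between HE1 and HP cells they differed in sign from the one used (-0.05 and -2.07 against 1.37). One HE2 value of this probe was removed as an outlier, so its HE2 mean rests on 1 untreated array.

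Add2, beta-adducin, which caps actin at the skeleton's junctions, was not well above background in FLK1+ cells, at -4.81 and -5.51. At 5 h it was at -1.11 and -1.48, at least 7.44-fold higher (fitted log2 difference 3.86, SE 0.96, adjusted p = 0.035). It was the only 1 of the 24 genes tested that was called in this step, where 2.59% of all genes tested were called higher. Without any single one of these 4 arrays the adjusted p lay between 0.0797 and 0.339, and with the normexp background correction it was 0.4 (log2 fold change 1.16). On slide 4, which held both FLK1+ arrays, the 5 h array was higher than them by 3.33 and 4.03. Slc4a1, the anion exchanger band 3, was at 0.02, -1.87 and 0.03 in SM cells against -2.62 and -1.61 in HP cells (log2 difference -1.50, SE 0.66, adjusted p = 0.225). Of the alternatives, only the one without SM replicate 2 called it (adjusted p = 0.0431). Sptb and Ank1, beta-spectrin and ankyrin, were well above background on 16 and 9 of the 27 arrays, and Ank1 reached it on both arrays of no group.

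Genes of blood group proteins and channels differed in how often they were detected. Rhag, the Rh-associated glycoprotein that carries ammonia, was well above background on 5 of the 27 arrays, which were the 4 HP arrays, at -2.93 and -4.10 untreated and -3.70 and -4.60 with DOX, and SM untreated replicate 2 at -3.74. It was not well above background in HE1 cells, at -5.89 and -6.24, and was called higher in HP cells by at least 1.19-fold (fitted log2 difference 2.55, SE 0.67, adjusted p = 0.0353). Without HE1 replicate 1 or 2, or HP replicate 1, that adjusted p was 0.1, 0.193 and 0.375, and the normexp background correction gave a log2 fold change of -0.40. Rhd, the Rh polypeptide, showed another order, at -2.41 and -2.86 in FLK1+ cells and -4.44 (not well above background) and -3.64 in HP cells.

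Kel, the Kell endopeptidase, was at -2.75 and -2.10 in HP cells and not well above background in HE1 cells (-5.83 and -6.29), at least 2.52-fold higher in HP cells (adjusted p = 0.0927). Of the alternatives, it was called only with median scaling (adjusted p = 0.0458), with slides as a random block (0.0335) and with the compared groups fitted alone (0.0274). Ermap, an erythroid membrane protein of the immunoglobulin family, stayed within 1.18 between group means. Aqp1, the water channel of red cells that endothelium also uses, was at 1.43 and 3.95 in HE1 cells and -2.92 and -2.15 in d1 BC cells (log2 difference 5.22, SE 1.77, adjusted p = 0.124). Between these groups it was called only with the replicate number as a block (adjusted p = 0.00966) and with normexp (0.023). In HP cells it was at -2.47 and -1.81, below HE1 cells by -4.83 (SE 1.77, adjusted p = 0.169, and 0.0262 with the slide as a fixed block).

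Car2, carbonic anhydrase 2, which hydrates carbon dioxide, was the gene called most often. Its levels were 5.38 and 5.21 in FLK1+ cells, 6.88 and 5.98 at 5 h, 4.86 and 4.32 in d1 BC cells, and 1.92 and 2.59 in HE1 cells. They were 4.05 and 5.32 in HE2 cells, 5.69 and 5.62 in HP cells, and 3.67, 3.19 and 3.94 in SM cells. HE1 cells had the lowest level, and both HE1 arrays lay below all other untreated arrays.

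The fall from d1 BC to HE1 cells had a log2 difference of -2.33 (SE 0.59, adjusted p = 0.0351). It was the only 1 of 26 genes tested that was called, where 1.3% of all genes tested were called lower. The adjusted p was 0.141 with the slide as a fixed block, and lay between 0.11 and 0.206 when any single array of the pair of groups was left out. d1 BC and HE1 cells shared no slide. The rise from HE1 to HE2 cells was 2.43 (SE 0.59, adjusted p = 0.0323), the only call among 24 genes tested, where 0.529% of all genes were called higher. Without HE1 replicate 1 or 2, or HE2 replicate 2, its adjusted p was 0.276, 0.0806 and 0.25. On slide 1 the difference was 2.13 and on slide 3 it was 2.73.

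Car2 rose from HE1 to HP cells by 3.39 on the log2 scale (SE 0.59, adjusted p = 0.00172), a 10.5-fold difference that was called under all 14 alternatives, with adjusted p-values from 8.36e-05 to 0.0394. It was 3.76 on slide 1 and 3.03 on slide 3. HP cells also lay above SM cells, by 2.05 (SE 0.54, adjusted p = 0.0174, and 0.0583 to 0.147 without SM replicate 2 or either HP array). Its paralog Car1 differed. Car1 was at -1.86 and -1.97 in HE1 cells and at -3.32 and -2.62 in HP cells (log2 difference -1.06, SE 1.17, adjusted p = 0.703), and its untreated HE2 arrays stood far apart, at 0.09 and -3.06.

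Blvrb, the biliverdin reductase of red cells, was at 0.73 and 0.74 in d1 BC cells and at 1.92 and 3.22 in HP cells. Bpgm, which makes 2,3-bisphosphoglycerate, was at 2.04 and 1.12 at 5 h, the group with its highest mean, and at -0.09 and -0.14 in HE1 cells, its lowest. Hemgn, hemogen, a nuclear protein of blood progenitors, was at 6.84 and 6.81 in FLK1+ cells and 5.62 and 6.24 in HP cells.

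Tspan33, a tetraspanin of erythroblasts, was highest in SM cells, at 1.02, 1.24 and 0.99, and at -2.92 and -1.48 in HP cells. The log2 fold change of HP against SM cells was -3.29 (SE 0.56, adjusted p = 0.000647), a 9.79-fold difference that was called under all 15 alternatives. On slide 1 it was -3.92 and on slide 3 it was -2.73. From HE1 to HE2 cells it went from -0.92 and -0.87 to -3.63 (not well above background) and -2.31 (log2 difference -2.08, SE 0.62, adjusted p = 0.0962). It was called there only with the slide as a fixed (adjusted p = 0.0157) or random block (0.00814). Trim10, an erythroid ubiquitin ligase of the tripartite motif family, was at -2.10, -4.60 and -1.52 in SM cells and at -4.37 and -5.07 in HP cells (log2 difference -1.98, SE 0.85, adjusted p = 0.208). Of the alternatives, only the one without SM replicate 2 called it (adjusted p = 0.0213).

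**Figure D2:**
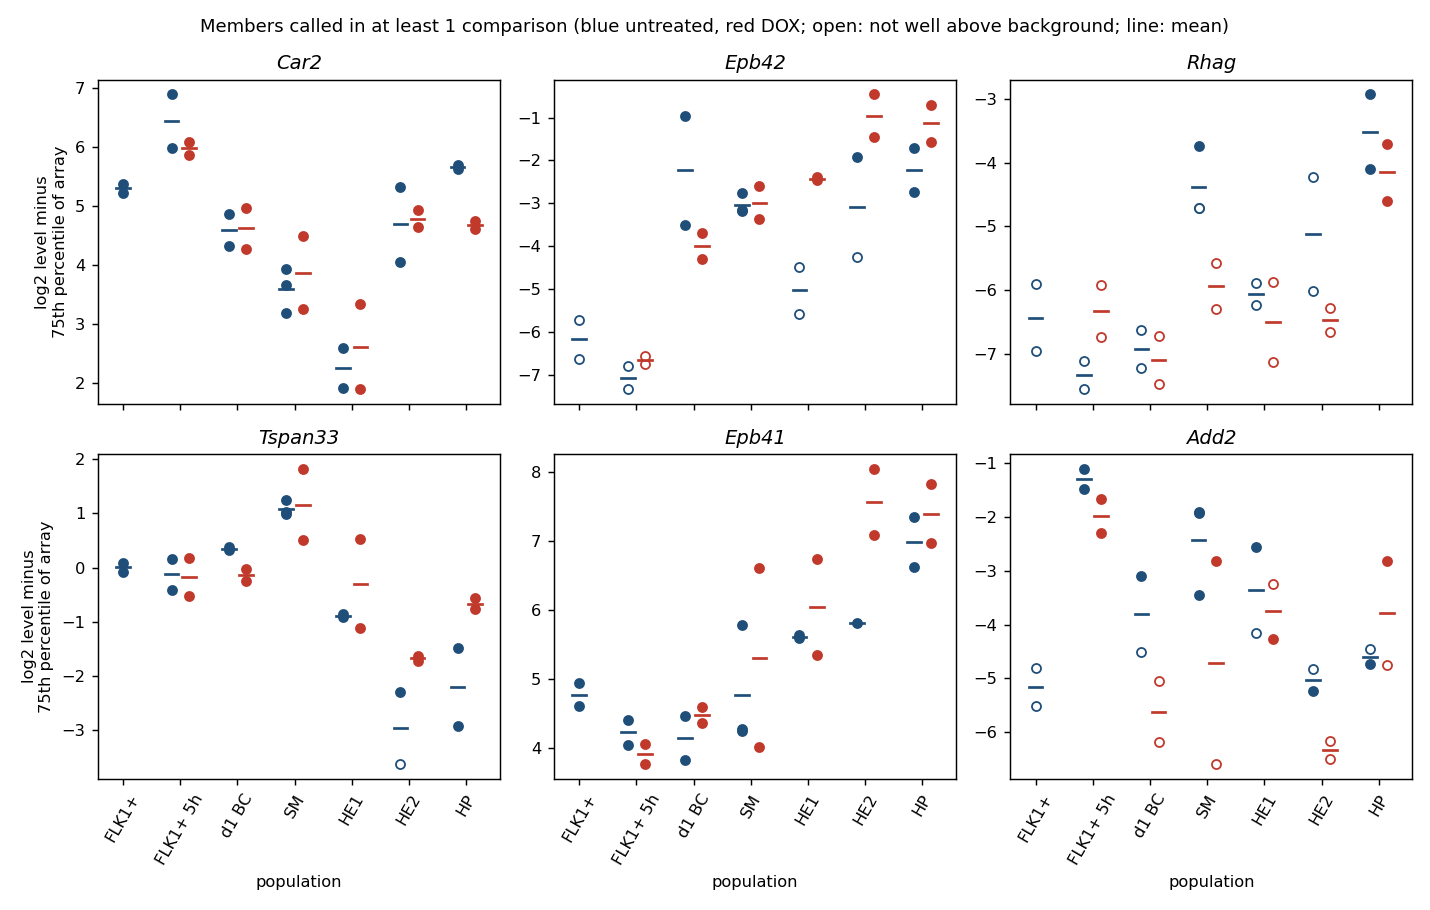
Log2 level of the 6 genes called in at least 1 comparison, by population, untreated in blue and DOX in red; each point is 1 array, open where the probe was not well above background, and bars are group means. Car2 dips in HE1 cells and is at 5.69 and 5.62 in untreated HP cells, and Tspan33 is highest in SM cells.

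From FLK1+ to FLK1+ 5h cells, 8 of 24 genes tested were higher, where 42.2% of all genes were, with a median of -0.30 against -0.18. Both 5 h arrays lay below both FLK1+ arrays for 12 of the 24, where 33.4% of all genes did, and above for 3, where 25.8% did, and 2.84% of all genes were called in either direction. From there to d1 BC cells 16 of 27 were higher, where 52.2% of all genes were, with a median of 0.28 against 0.04, and 0 were called lower, where 0.883% of all genes were. Median scaling turned that median to -0.055, and that of all genes to -0.30. From d1 BC to HE1 cells 11 of 26 were higher, where 52% of all genes were, with a median of -0.39 against 0.05. Arrays of HE1 cells lay below those of d1 BC cells without overlap for 13 of the 26, where 30% of all genes did, and above for 5, where 29.8% did. Without HE1 replicate 1 the median was 0.10. In this step medians were 4.54 for endothelial, 2.14 for myeloid, 2.19 for megakaryocyte and -2.58 for smooth muscle genes. Smooth muscle genes had medians of 2.75 from FLK1+ to FLK1+ 5h cells and 1.34 from there to d1 BC cells. The part of these markers in the erythroid values was not tested.

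Among the untreated comparisons the median of the group lay farthest from 0 between HE1 and HP cells. Of 29 tested, 23 were higher in HP cells, where 51.2% of all genes were, with a median log2 fold change of 0.90 against 0.03 for all genes tested. Both HP arrays lay above both HE1 arrays for 19 of the 29, where 26.2% of all genes did, and below for 5, where 24.1% did. Median scaling moved the median to 1.51 and that of all genes to 0.64. Some of these genes were tested because they were above background in HP cells alone, so the count was also taken over those above background on every array of both groups. There, 15 of 24 lay higher without overlap against 27.2% of all such genes, and 5 lay lower against 24.1%. The median was 0.71 against 0.03. The 2 called were Car2 and Rhag, where 1.69% of all genes tested were called higher. Without HP replicate 2 the median was 0.56.

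Markers of other cell types moved between the same groups. All 10 myeloid genes were tested, with 9 higher in HP cells, 6 of them called, and a median of 3.58, and their summed level was 5.68 and 6.21 in HE1 cells and 6.81 and 6.96 in HP cells. Of 7 megakaryocyte genes, 6 were tested and were higher in HP cells, 3 of them called, with a median of 3.11 and summed levels of 2.25 and 2.18 against 6.45 and 6.97. All 7 endothelial genes were lower in HP cells, 1 of them called (median -1.35), with summed levels of 6.5 and 7.39 against 5.67 and 5.81. All 6 genes of the fibroblast feeder list (Col1a1, Col1a2, Col3a1, Dcn, Pdgfra and Thy1) were lower, 2 of them called (median -2.67). Their summed levels were 6.33 and 5.52 against 2.21 and 3.46. They do not mark feeder cells alone. Their summed level was 6.95 or more in untreated SM cells, and the paper has Col1a1 among genes induced in SM and HE1 cells. The part of these cells in the values of the erythroid group was not tested.

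Between HE2 and HP cells, 22 of 29 genes were higher in HP cells, where 54.2% of all genes were, with a median of 0.61 against 0.08. For 9 of them the arrays did not overlap, where 15.4% of all genes tested were higher without overlap. For 0 they were lower, where 14.8% of all genes tested were. Over the genes above background on every array of both groups, 4 of 20 lay higher without overlap, where 12.5% of all such genes did, with a median of 0.47 against 0.06. The 10 myeloid genes had a median of 1.36, with 9 higher in HP cells, and all 7 endothelial genes were lower (median -0.996), and their part was not tested. None was called by limma, while 3 had an unadjusted p under 0.05 (Klf1, Rhag and Kel, all higher), where 6.06% of all genes did and 0.00395% were called. These 3 were tested only through the HP arrays, where they were high, so their count cannot be read against that share. Without the dim untreated HE2 replicate 1 the median was 0.10 and without HP replicate 2 it was 0.31. HP against SM cells split the group, 14 of 31 higher (57.7% of all genes) and 17 lower, with a median of -0.20 against 0.14 that turned positive under quantile normalization (0.066) and median scaling (0.14), and without SM replicate 1 (0.064) or HP replicate 1 (0.074). Car2 and Epb41 were called higher in HP cells, where 3.11% of all genes tested were, and Tspan33 lower, where 6.2% were.

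Of 56 other genes of the pathway, 55 were tested between HE1 and HP cells. Of these, 6 were called higher and 2 lower, where 1.69% and 2.53% of all genes tested were. Their median was 0.86 against 0.03. Gata1, the factor that drives erythroid genes, was at -1.80 and -3.46 in HE1 cells, 0.22 and 0.36 in HE2 cells and 3.57 and 3.87 in HP cells, a log2 difference of 6.35 from HE1 to HP cells (SE 0.85, adjusted p = 0.000184). Epor, the erythropoietin receptor, was at 2.38 and 1.94 in FLK1+ cells and 1.55 and 1.01 at 5 h, and rose from 0.44 and 0.89 in d1 BC cells to 2.49 and 2.68 in HE1 cells (log2 difference 1.92, SE 0.48, adjusted p = 0.0336), and was at 2.70 and 3.08 in HP cells.

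The 3 untreated SM arrays differed among themselves in the erythroid genes, and not in 1 direction. Replicates 1 and 3 both lay above replicate 2 for 17 of the 32 genes and both below it for 13. The same count was not made over all genes. Over all genes replicate 2 correlated with replicates 1 and 3 at 0.93 and 0.92, against 0.97 between those. Replicate 2 also had the highest share of probes well above background of all arrays, 89.6%. Among the 17, Klf1 was at -0.32 and 0.28 on replicates 1 and 3 and at -2.30 on replicate 2. Kel was at -1.33 and -1.49 against -3.81, and Trim10 at -2.10 and -1.52 against -4.60. Among the 13 were Gypc, at 1.99 and 1.93 against 3.79, Epb41, at 4.25 and 4.29 against 5.79, and Cpox, at 2.83 and 2.34 against 3.72. All 6 of these genes were picked after their values were seen.

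The embryonic globin genes ran as Klf1 did, Hba-x at 5.65 and 6.29 against 1.6 and Hbb-y at 7.07 and 5.95 against 2.92. All 9 globin genes on the array were above background on every untreated SM array, with a summed level of 9.43 and 8.97 on replicates 1 and 3 and 6.33 on replicate 2. The endothelial genes ran the other way. Cdh5, VE-cadherin, was at -1.12 and -0.41 against 4.34, Aqp1 at -1.41 and -5.53 (the second not well above background) against 1.48, and the summed level of the 7 endothelial genes, 6 of them above background on every array, at 4.0 and 3.78 against 6.04. Replicate 2 lay on slide 3 and replicates 1 and 3 on slides 4 and 1, and the part of these marker levels and of the slide in the SM results was not tested. Smooth muscle genes were high on all 3 arrays, with a summed level of 9.94 or more.

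**Figure D3:**
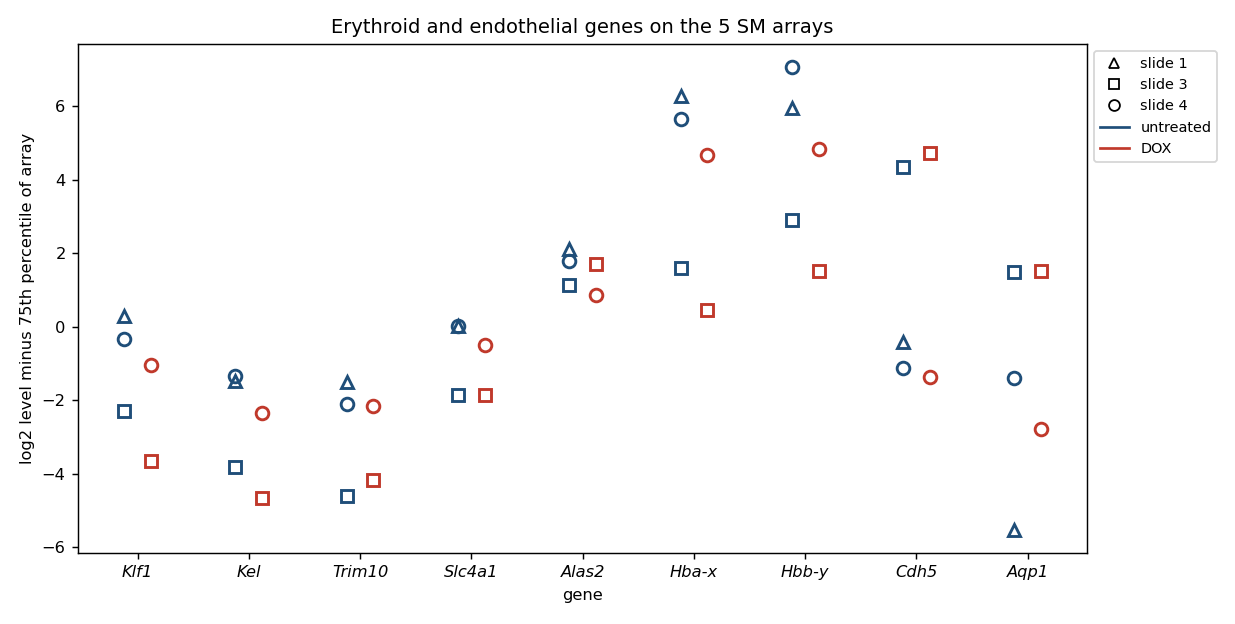
Log2 level of 5 erythroid genes, 2 embryonic globin genes, the endothelial gene Cdh5 and Aqp1 on each of the 5 SM arrays, untreated in blue and DOX in red; the symbol gives the slide. On slide 3 Klf1, Kel, Trim10, Slc4a1 and the globins are lower and Cdh5 and Aqp1 higher than on slides 1 and 4 in untreated cells, and than on slide 4 in DOX cells, with 1 DOX array on each.

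The second question was what dnFOS did to these genes in each population. None of the genes was called in any of the 6 DOX comparisons, in which 0.00421% of all genes tested were called at 5 h, 0.0084% in SM cells, 0.0398% in HP cells and 0% in the other 3 populations. In FLK1+ 5h cells 1 of 25 genes tested had an unadjusted p under 0.05 in limma, Car1, where 4.98% of all genes did. Its adjusted p was 0.996 and its arrays overlapped, at -6.88 (not well above background) and -3.32 untreated and -0.87 and -3.78 with DOX. In d1 BC cells it was 1 of 27 (Epb42, with 1.44% of all genes), in SM cells 1 of 30 (Add2, 2.58%), and in HE1 cells 1 of 25 (Epb42, 1.14%). In HE2 cells it was 4 of 26 (Epb42, Rhd, Uros and Tspan33, 8.91%) and in HP cells 2 of 30 (Rhd and Tspan33, 3.5%). Several passed the filter only through the DOX arm, where they were higher. These were Car1 at 5 h, Epb42 in HE1 cells, Epb42, Rhd and Tspan33 in HE2 cells, and Rhd in HP cells. Add2 in SM cells passed only through the untreated arm. The counts cannot be read against the shares. The lowest adjusted p of any of these genes in any population was 0.54, in HE2 cells. None was called under the alternatives either.

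Genes of the group were higher with DOX in 9 of 25 cases at 5 h (47.2% of all genes tested), 20 of 27 in d1 BC cells (62.9%), 17 of 30 in SM cells (56.2%), 18 of 25 in HE1 cells (56.2%), 21 of 26 in HE2 cells (56.2%) and 22 of 30 in HP cells (68%). Their median difference was -0.15 at 5 h, 0.19 in d1 BC cells, 0.08 in SM cells, 0.36 in HE1 cells, 0.74 in HE2 cells and 0.40 in HP cells. Over all genes tested it was -0.04, 0.13, 0.09, 0.09, 0.17 and 0.25 in the same order. Median scaling of the arrays moved the medians of the group to -0.79, 0.14, 0.42, 0.64, 1.20 and 0.092 and those of all genes to -0.67, 0.08, 0.43, 0.37, 0.63 and -0.05. The median in SM cells changed sign under quantile normalization, to -0.14, where that of all genes was 0.07. It was also below 0 with the authors' values (-0.10) and with the slide as a fixed (-0.089) or random block (-0.097), and that at 5 h was 0.022 with the slide fixed and 0.026 without a filter on dim probes.

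**Figure D4:**
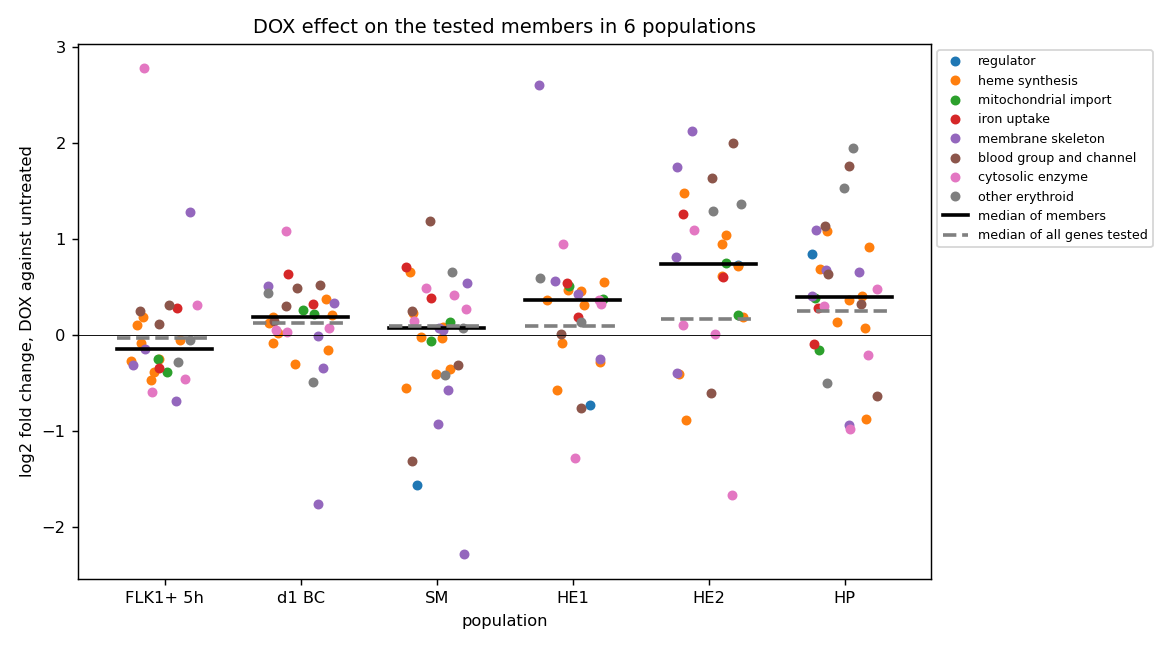
Log2 fold change, DOX against untreated, of each tested gene of the group in the 6 populations; each point is 1 gene, coloured by role, the solid bar is the median of the group and the dashed bar that of all genes tested. The bars lie farthest apart in HE2 cells, at 0.74 and 0.17.

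In HP cells DOX arrays lay above untreated arrays without overlap for 8 of 30 genes, where 25.7% of all genes tested did, and below for 3, where 12.5% did. Over genes above background on every HP array, 7 of 28 lay above, where 25.7% of all such genes did. The 3 largest differences upward were in Trim10, Rhd and Tspan33, and the other 5 genes were Alas2, Urod, Slc4a1, Epb42 and Kel. Trim10 was at -4.37 and -5.07 untreated and -2.21 and -3.34 with DOX (log2 difference 1.94, SE 0.93, adjusted p = 0.999). Rhd was at -4.44 and -3.64 untreated and -2.73 and -1.84 with DOX (1.76, SE 0.75, adjusted p = 0.999). Tspan33 was at -2.92 and -1.48 untreated and -0.77 and -0.57 with DOX (1.53, SE 0.62, adjusted p = 0.999). These 3 were picked for DOX arrays above untreated ones, which fixes the sign of their differences within slides. On slides 1 and 3 these were 2.16 and 1.72 for Trim10, 1.71 and 1.80 for Rhd, and 2.15 and 0.92 for Tspan33.

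The 3 genes with lower DOX arrays in HP cells were Car2, Sptb and Alad. Car2 was at 5.69 and 5.62 untreated and 4.61 and 4.74 with DOX (log2 difference -0.98, SE 0.59, adjusted p = 0.999). Sptb was at -3.25 and -3.26 untreated and -4.42 (not well above background) and -3.96 with DOX (-0.93, SE 0.90, adjusted p = 0.999). Alad, which joins 2 molecules of aminolevulinic acid, was at 2.80 and 2.58 untreated and 1.81 and 1.83 with DOX (-0.87, SE 0.83, adjusted p = 0.999). None of these differences passed the test. Without untreated HP replicate 1 the Tspan33 difference was 0.81, and with normexp those of Trim10, Rhd and Sptb were 0.77, 0.75 and -0.14.

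Within slides, 19 of the 30 genes tested in HP cells were higher with DOX on both slide 1 and slide 3, where 51.3% of all genes tested were, and 6 were lower on both, where 20.6% were. Some of the 19 were picked after their values were seen. Klf1 was higher by 1.30 and 0.37, Alas2 by 1.23 and 0.93, Kel by 1.1 and 1.17, Epb42 by 1.17 and 1.02, and Urod by 1.11 and 0.72. Arrays of Alas2, Kel, Epb42 and Urod did not overlap, which fixed these signs. Those lower on both were Car2, Sptb, Alad, Rhag, Hemgn (-0.48 and -0.51) and Slc25a38 (-0.04 and -0.27). Rhag was lower by -0.77 and -0.51 while its partner Rhd was higher. Alas1 differed by 0.26 and -0.12, so that the 2 first-step enzymes did not share a direction on slide 3. Of the myeloid list, 10 genes tested in HP cells had a median log2 fold change of -2.66 with DOX, 2 of them higher, while its summed level was 6.81 and 6.96 untreated and 7.17 and 6.79 with DOX. The part of this in the values above was not tested. The median of 0.40 in HP cells was 0.05 without untreated replicate 1, 0.06 without DOX replicate 2 and 0.56 when DOX replicate 1, the array with the low Itga2b level, was left out.

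Gata1 was at 3.57 and 3.87 in untreated HP cells and 4.33 and 4.70 with DOX (log2 difference 0.80, SE 0.85, adjusted p = 0.999), and Epor at 2.70 and 3.08 against 3.83 and 4.20 (1.13, SE 0.48, adjusted p = 0.999). Of the 55 other pathway genes tested in HP cells, 42 were higher, where 68% of all genes tested were. None was called, where 0.0398% were, and 3 had an unadjusted p under 0.05 in limma, where 3.5% did. Their median was 0.38 against 0.25.

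**Figure D5:**
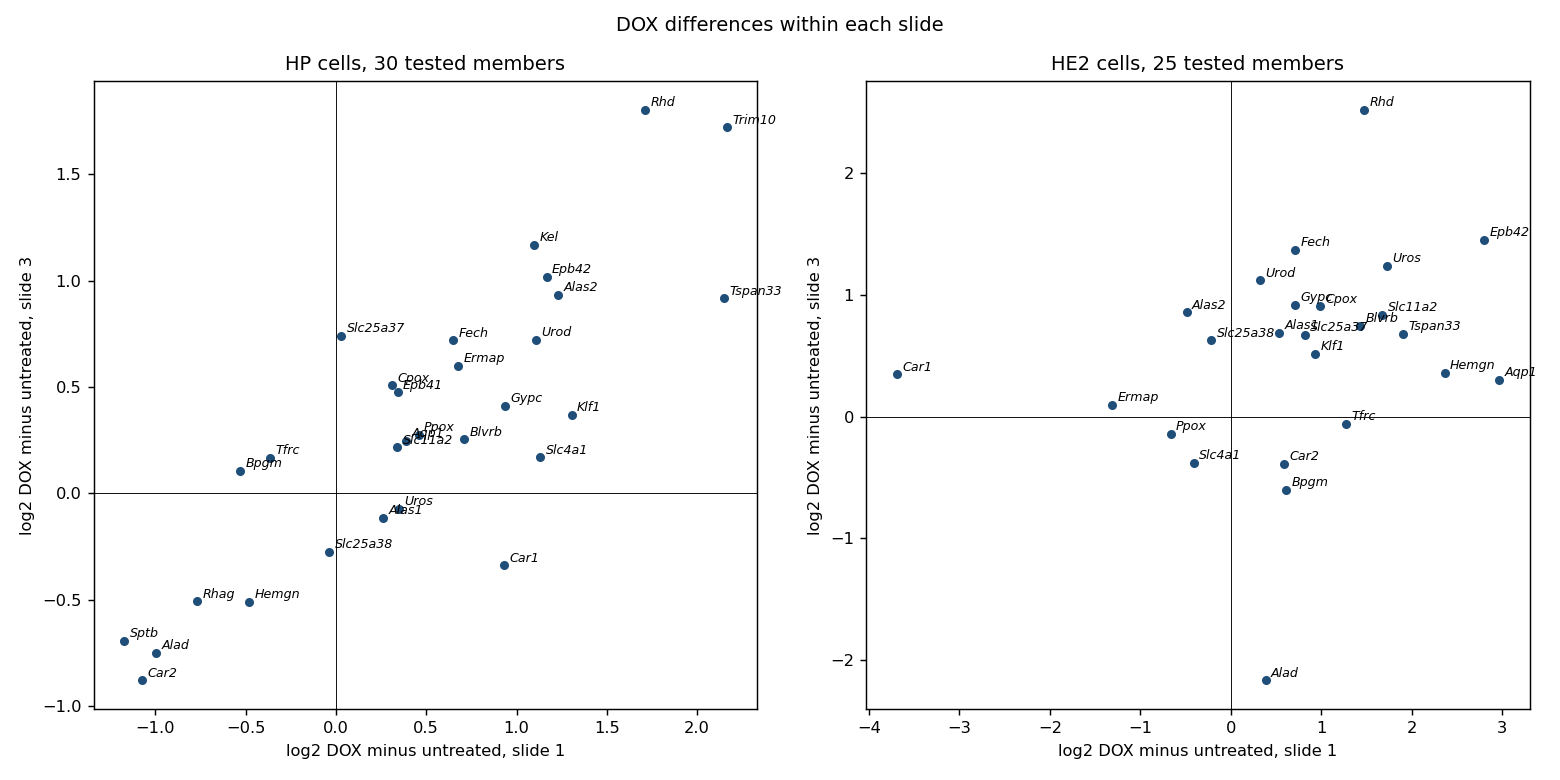
Difference of log2 level, DOX minus untreated, on slide 1 (horizontal) and slide 3 (vertical) for each gene tested in HP cells (left, 30 genes) and in HE2 cells (right, 25 genes with values on both slides). In HP cells Trim10, Rhd, Tspan33, Kel, Epb42 and Alas2 lie toward the upper right and Car2, Alad and Sptb at the lower left.

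In HE2 cells 7 of 26 genes lay higher on both DOX arrays without overlap, where 20.4% of all genes tested did, and 0 lay lower, where 14.3% did. The 3 largest were Epb42, at -4.25 (not well above background) and -1.92 untreated and -1.45 and -0.46 with DOX (log2 difference 2.13, SE 0.79), Rhd, at -4.94 (again below that limit) and -4.10 against -3.47 and -1.58 (2.00, SE 0.75), and Epb41, at 5.82 on the 1 untreated array measured against 7.10 and 8.05 (1.75, SE 0.91). Each had an adjusted p of 0.54. The other 2 Epb41 probes were lower with DOX, by -1.01 and -0.32. Of the myeloid list, 9 genes were tested in HE2 cells, 8 of them lower with DOX and 6 with an unadjusted p under 0.05 in limma, none called, with a median of -1.77. Its summed level was 7.11 and 5.52 untreated and 5.89 and 6.26 with DOX, and its part in the values of the erythroid group was not tested.

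Over the 20 genes above background on every HE2 array, 2 lay higher without overlap, where 19.9% of all such genes did, and the median was 0.61 against 0.19. The HE2 median of 0.74 was 0.12 without the dim untreated replicate 1 and 0.34 without DOX replicate 2, the array with low Tek and Itga2b levels. On slide 1 the median was 0.77 and on slide 3 it was 0.67. Of the 25 genes with values on both slides, 15 were higher with DOX on both, where 41.4% of all genes were, and 2 were lower on both, where 19.9% were. Without untreated HE2 replicate 1, Epb42 had a log2 fold change of 0.96 and Rhd one of 1.58, and without DOX replicate 2 that of Rhd was 1.05.

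In HE1 cells 4 of 25 genes lay higher without overlap, where 8.75% of all genes tested did, and 3 lay lower, where 8.34% did. Epb42 was not well above background in untreated HE1 cells, at -5.59 and -4.48, and was at -2.47 and -2.39 with DOX, at least 2.52-fold higher (fitted log2 difference 2.60, SE 0.79, unadjusted p = 0.00388 and adjusted p = 1.00 in limma). That was the lowest unadjusted p in limma of any gene of the group in the 6 DOX comparisons. Since Epb42 was tested here only through the DOX arrays, nothing is drawn from this rank. Blvrb was at 1.19 and 1.62 untreated and 1.74 and 2.97 with DOX (0.95, SE 0.67), and Ppox at -0.18 and -0.30 against 0.59 and -0.16 (0.45, SE 0.53). With normexp the Epb42 difference was 0.07.

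The 3 genes with lower DOX arrays in HE1 cells were Car1, Ermap and Klf1. Car1 was at -1.86 and -1.97 untreated and -4.04 (not well above background) and -2.35 with DOX (log2 difference -1.28, SE 1.17). Ermap was at 1.03 and 1.36 against 0.91 and -0.04 (-0.76, SE 0.62). Klf1 was at -3.39 and -2.90 against -4.29 and -3.47 with DOX, the first not well above background (-0.73, SE 1.04). Leaving out DOX replicate 1 moved the differences of Car1, Ermap and Klf1 to -0.43, -1.24 and -0.32, and leaving out DOX replicate 2 moved them to -2.12, -0.28 and -1.15. Those of Blvrb and Ppox went to 1.57 and 0.078 in the first case and to 0.34 and 0.83 in the second. Adjusted p-values of Car1, Ermap and Klf1 were 1.00, and Car2 differed by -0.03 on slide 1 and 0.75 on slide 3. The median of the group in HE1 cells was 0.97 when DOX replicate 1 was left out, -0.28 when DOX replicate 2, the array with the low Tek level, was, and 0.12 when untreated replicate 1 was.

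In d1 BC cells 5 of 27 genes lay higher without overlap, where 18.5% of all genes tested did, and 3 lay lower, where 9.85% did. Blvrb was at 0.73 and 0.74 untreated and 1.89 and 1.76 with DOX (log2 difference 1.08, SE 0.67), with arrays of each group close together. Tfrc was at 1.95 and 2.38 against 2.87 and 2.72 (0.63, SE 0.47), and Aqp1 at -2.92 and -2.15 against -2.13 and -1.96 (0.49, SE 1.77). Epb42, which had appeared in untreated cells at this stage, was at -0.96 and -3.51 untreated and -3.70 and -4.29 with DOX (-1.76, SE 0.79), a difference that was -0.49 when untreated replicate 1 was left out and -3.04 when untreated replicate 2 was. Tspan33 was at 0.39 and 0.32 against -0.02 and -0.25 (-0.49, SE 0.62), and Ppox at -0.28 and -0.53 against -0.62 and -0.79 (-0.30, SE 0.53). Adjusted p-values were 1.00 for all 6. Without untreated replicate 1 the differences of Aqp1, Tfrc and Ppox were 0.11, 0.42 and -0.18.

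At 5 h, after the shortest exposure to DOX, 1 of 25 genes lay higher without overlap, where 18.6% of all genes tested did, and 3 lay lower, where 16.4% did. Slc4a1 was at -3.96 and -3.55 untreated and -1.65 and -3.31 with DOX (log2 difference 1.28, SE 0.73). Add2 was at -1.11 and -1.48 against -2.30 and -1.67 (-0.69, SE 0.96), Fech at 1.72 and 1.63 against 1.04 and 1.54 (-0.39, SE 0.74), and Tfrc at 2.54 and 2.59 against 1.92 and 2.52 (-0.34, SE 0.47). Adjusted p-values were 1.00 for these 4. Without DOX replicate 1 the differences of Slc4a1, Add2, Fech and Tfrc were 0.45, -0.375, -0.14 and -0.043. Only replicate 2 had both arms on one slide, and there the median of the group was 0.04. The other 2 probes of Tfrc were higher with DOX, by 0.40 and 0.23.

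In SM cells 1 of 30 genes lay higher without overlap, where 4.49% of all genes tested did, and 0 lay lower, where 6.08% did. That gene was Tfrc, at 2.27, 1.54 and 2.23 untreated and 2.45 and 2.34 with DOX (log2 difference 0.38, SE 0.43, adjusted p = 0.999), the difference was 0.14 without untreated replicate 2, and that of its mean over all probes was -0.048. Klf1 was lower with DOX on both slides that held both arms, by -0.71 on slide 4 and -1.35 on slide 3. Kel was lower by -1.03 and -0.86 and Add2 by -0.93 and -3.15 on the same slides, its DOX array on slide 3 not well above background. Of the 30 genes tested, 4 were lower on both slides (these 3 and Ermap), where 24% of all genes tested were, and 2 were higher, where 22.7% were. The 9 globin genes tested had a median of -1.45 and were all lower, none of them called. The median of the group was -0.25 without SM DOX replicate 2 and 0.43 without SM DOX replicate 1.

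The DOX effects in HP cells were also set against those in SM and HE1 cells. No gene of the group was called in either difference, in which 0% of all genes tested were called. Effects were compared with their sign, so a higher value need not be a larger effect. Against SM cells, 20 of 31 genes had the higher value in HP cells, where 56.1% of all genes did, with a median difference of 0.33 against 0.12. Of the 31, 1, Add2, had an unadjusted p under 0.05 in limma, where 2.04% of all genes did (adjusted p = 1.00). Add2 was not well above background on every array of either HP group and entered this comparison through the untreated SM arrays, so no size is given. Against HE1 cells, 16 of 30 had the higher value in HP cells, where 55.7% of all genes did, with a median of 0.05 against 0.11. None had an unadjusted p under 0.05 in limma, where 1.39% of all genes did.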

How the data were processed

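RNA of 27 samples in 13 groups was hybridised to one-colour Agilent mouse arrays with 62976 spots each. The deposited files hold the scanner's intensity values, background-subtracted by Feature Extraction (10.7.1.1 in the submitters' notes, 10.7.3.1 in the file headers), and a table of log2 values that the authors normalized, used here as an alternative. Control spots (3671) and outlier spots (5204 over all arrays) were left out, leaving 55681 probes. The main values were log2 intensities minus the 75th percentile of each array, with 1 probe per gene, the one of highest mean over all arrays. Probes were named through RefSeq accessions, and 26582 of them had a symbol. A model with 1 mean per group was fitted over all 27 arrays in limma 3.58.1 (R 4.3.3), with Benjamini-Hochberg adjustment over the genes tested in each comparison. The script was tested on simulated data. The 32 genes, the 56 other pathway genes and the marker lists were chosen with earlier results of these data known. Named genes were those called, and in each DOX comparison up to 3 in each direction whose arrays did not overlap, ranked by fold, and the pairs Alas1 and Alas2, Car1 and Car2, and Rhag and Rhd. Samples were grouped by their labels, and alternatives changed the background correction, scaling, filter, probe rule, blocks, groups fitted and arrays used. Replicate numbers went with the slide in most groups, and deviations of same-numbered arrays correlated at 0.25 to 0.83 in 5 populations and at -0.01 in FLK1+ 5h cells, whose first replicates lay on different slides, so the numbers were not taken as pairs. The number of arrays limits the precision. Promoters were taken from RefSeq (GRCm38.p6).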

Additional observations from a re-analysis of the deposited data

Results flagged for a closer look

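In 5 genes the DOX arrays lay on opposite sides of the untreated arrays in different populations, without overlap in either, and for each the difference between the effects was not tested. Epb42, protein 4.2 of the red cell skeleton, had a log2 fold change of -1.76 in d1 BC cells against 2.60 in HE1 cells, 2.13 in HE2 cells and 1.09 in HP cells, and the fitted values differ by -4.37, -3.89 and -2.85. The HE1 value was taken against untreated arrays not well above background and was 0.07 with normexp, and 1 of the 2 untreated HE2 arrays was below that limit too, so the sizes of the first 2 differences are not measured on both sides. The d1 BC value was -0.49 without untreated replicate 1, which limits all 3. Tspan33, the erythroblast tetraspanin, had -0.49 in d1 BC cells against 1.29 in HE2 and 1.53 in HP cells, fitted differences of -1.78 and -2.02, where untreated HE2 replicate 1 was not well above background and the HP value was 0.81 without untreated replicate 1. Klf1 had -0.73 in HE1 and 0.72 in HE2 cells, a fitted difference of -1.46, with 1 array not well above background in each of these effects. Ppox, protoporphyrinogen oxidase, had -0.30 in d1 BC and 0.45 in HE1 cells, a difference of -0.76. Tfrc, the transferrin receptor, had -0.34 in FLK1+ 5h cells against 0.63 in d1 BC and 0.38 in SM cells, differences of -0.97 and -0.72, and other Tfrc probes did not share these directions at 5 h and in SM cells. None of the single effects passed the test in limma.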

How the results depend on the processing

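No gene of the group was called for DOX under any alternative. Among named genes 449 values kept direction and side of the threshold, 41 kept direction but were no longer called, and 3 changed sign: Tfrc with the mean of all probes (0.10 at 5 h, -0.048 in SM cells) and Rhag between HE1 and HP cells with normexp (-0.40). Called genes numbered 1 from FLK1+ to FLK1+ 5h cells, and 0 with normexp, quantile normalization or no filter, and 0 leaving out any array. From there to d1 BC cells it was 1, and 0 with normexp or only the compared groups fitted, and 0 to 1 leaving out arrays, and with the authors' values the 1 called was Car2, lower, in place of Epb42. From d1 BC to HE1 cells it was 1, against 3 with normexp, 3 with quantile normalization, 2 with median scaling, 4 with the authors' values, 0 without a filter, 0 with the slide fixed, 2 with it random, 0 with only the compared groups, and 0 to 1 leaving out arrays. From HE1 to HE2 cells it was 1, against 0 with median scaling, 0 without a filter, 3 with the slide fixed, 2 with it random, 0 with only the compared groups, and 0 to 1 leaving out arrays. From HE1 to HP cells it was 2, against 4 with median scaling, 5 with the slide fixed, 7 with it random, and 1 to 2 leaving out arrays. Between SM and HP cells it was 3, against 1 with only the compared groups and 1 to 4 leaving out arrays, and 2 without a filter or with the mean of all probes, where Epb41 was not called.

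With the replicate number as a block, the calls were 2 from d1 BC to HE1 cells and 4 from HE1 to HP cells, and Epb41 between SM and HP cells was no longer called (adjusted p = 0.0822). The numbers are not known to pair the samples.

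Median scaling moved the median DOX effect of the group to -0.79 at 5 h, 0.42 in SM, 1.20 in HE2 and 0.092 in HP cells, and the medians of HP against HE1 and HE2 cells to 1.51 and 1.03. Quantile normalization moved the SM median to -0.14. Medians of untreated comparisons were followed as a choice made after seeing the data. Normexp gave 0.65 and the mean of all probes 0.62 for HP against HE1 cells, and the mean of all probes 0.36 for HP against HE2 cells. Leaving out single arrays gave 0.011 to 0.37 in d1 BC, -0.25 to 0.43 in SM, -0.28 to 0.97 in HE1, 0.12 to 1.1 in HE2 and 0.053 to 0.62 in HP cells with DOX, 0.56 to 0.96 for HP against HE1 and 0.10 to 0.93 for HP against HE2 cells. Of the other untreated medians, HP against SM cells gave 0.066 with quantile normalization, 0.14 with median scaling and -0.19 to 0.074 leaving out arrays. FLK1+ 5h against FLK1+ cells gave -0.45 without a filter and -0.42 to -0.298 leaving out arrays. The step to d1 BC cells gave -0.055 with median scaling and 0.052 to 0.44 leaving out arrays. The step to HE1 cells gave -0.12 with normexp, -1.12 with median scaling, -0.15 without a filter, -0.244 with the mean of all probes and -0.59 to 0.10 leaving out arrays. Without untreated HE2 replicate 1 no Epb41 value could be fitted. The causes were not tested. Genes near background, such as Rhag, Kel and Trim10, are limited by signal.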
